A study of Homo sapiens with 22 samples.

Results

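The 10 genes described here encode secreted inflammatory proteins: the chemokines CCL2, CCL5, CXCL1, CXCL2, CXCL3 and CXCL8, the interleukin 1 ligands IL1A and IL1B, and the cytokines IL24 and IL32. They were chosen by name, and all 10 were found among the 38224 gene symbols of the 3 single-cell tables. IL24 and IL32 share the inflammatory setting but not the structure of the IL1 family, since IL24 belongs to the IL10 family and IL32 to neither. The cells are WM989 and WM983B, human melanoma cell lines, and the cells used were single-cell-derived clones. WM989 carries an activating BRAF mutation. Neither line had received a BRAF or MEK inhibitor here. The authors assigned each cell to a primed state, whose cells survive such inhibitors more often, or to a drug-susceptible state, from clusters of the same transcriptomes. Untreated WM989 cells carrying transcribed lineage barcodes were measured in 8 wells of the droplet chip, 4 in each of the replicates r1 and r2, and untreated WM983B cells in 1 library. Per the methods, the WM989 cells had been sorted as a mixed population or as cells high in EGFR and NGFR and then grown for several divisions, and each culture was loaded on a pair of wells. The 8 wells are thus fewer than 8 cultures, and the labels do not say which well held which sort. In a further experiment barcoded WM989 cells of 1 well were split over 4 plates for 5 days, and this was done in parallel for replicates r1 and r2. The sample labels name 1 sample of each treatment Mix and the other Primed, and which of these is r1 could not be told. One plate had no treatment (control), one received recombinant TGFB1 at 5 ng/mL, one the TGF-beta receptor inhibitor LY2109761 (TGFBRi) at 4 uM, and one the PI3-kinase inhibitor GDC-0941 (PI3Ki) at 2 uM. Open chromatin was measured by ATAC-seq in WM989 cells sorted by the surface receptors EGFR and NGFR, with 3 libraries each of the sorts EGFR-NGFR-High, NGFR-High, EGFR-High and Mix. The methods describe the last of these as cells negative for both receptors.

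Chemokines are small secreted proteins that direct the migration of leukocytes. CCL2 attracts monocytes through CCR2, CCL5 attracts T cells and monocytes, and CXCL1, CXCL2, CXCL3 and CXCL8 attract neutrophils through CXCR1 and CXCR2. IL1A and IL1B bind the receptor IL1R1, which signals to NF-kB, and IL1B is made as a precursor that caspase 1 cleaves in the inflammasome. NF-kB and AP-1 bind the promoters of many of these genes, and NF-kB in turn is switched off by its own targets. Melanoma cells are known to secrete CXCL1 and CXCL8 themselves.

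The genes lie in groups on the genome. On hg38, CXCL8 (chr4:73740519-73743716, plus strand), CXCL1 (chr4:73869393-73871308, plus), CXCL3 (chr4:74036589-74038807, minus) and CXCL2 (chr4:74097040-74099196, minus) lie in the CXC chemokine cluster of chromosome 4. IL1A (chr2:112773925-112784493, minus) and IL1B (chr2:112829751-112836816, minus) are neighbours on chromosome 2. CCL2 (chr17:34255274-34257208, plus) and CCL5 (chr17:35871491-35880793, minus) lie apart on chromosome 17. IL24 (chr1:206897443-206904139, plus) and IL32 (chr16:3065297-3082192, plus) are on chromosomes of their own. The RefSeq promoter table for GRCh38.p14, which covers 250 bases before to 50 bases after each start, holds 8 of the 10 genes, and CCL2 and CCL5 are not among them.

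Stretches of 30 bases from these promoters are shown for 2 motifs, kB-type and AP-1. The CXC chemokines here all held the first and IL1A did not, while CXCL8 and IL1A held the second. The stretches are written 5′ to 3′ on the strand of the gene. Capitals mark a match to the kB-type motif GGNNNTTCC, bound by NF-kB, or to the AP-1 motif TGANTCA, with N any base and both strands searched. The 2 motifs do not overlap in any of the stretches.
CXCL1 kB: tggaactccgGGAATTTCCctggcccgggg
CXCL2 kB: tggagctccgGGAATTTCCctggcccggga
CXCL3 kB: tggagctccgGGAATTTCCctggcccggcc
CXCL8 kB: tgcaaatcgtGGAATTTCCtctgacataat
CXCL8 AP-1: aggaagtgtgaTGACTCAggtttgccctga
IL1A AP-1: gcgaagaagacTGACTCAggcttaagctgc

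The same 9 letters GGAATTTCC stood in all 4 CXC promoters, with the first letter at -78 from the start in CXCL1 and CXCL3, at -77 in CXCL2 and at -91 in CXCL8. CXCL1, CXCL2 and CXCL3 each held a further kB-type match at -53. CXCL8 was the member with both motifs, its AP-1 match lying at -137, and the AP-1 matches of IL1A lay at -12, as shown, and at 39, past the start. IL32 held 3 kB-type matches, at -230, -98 and -68, and the windows of IL1B and IL24 held neither set of letters. Among 27305 promoters in the table, 20.1% held a kB-type match and 7.76% an AP-1 match. A match describes letters and is not a measured binding site.

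Depth, purity and paralogs touch all that follows. The files hold 12531 WM989 cells with a median of 53571 unique molecular identifiers (UMIs, each standing for 1 captured transcript) per cell, 1449 WM983B cells, and 40021 cells of the treatment experiment in 8 libraries of 70239657 to 122420544 UMIs. Between 0 and 194 cell barcode sequences per experiment occurred in more than 1 library. Levels are given in CPM, the UMIs of a gene per 1000000 UMIs of the summed cells, and since they are 3-prime tag counts they are compared within a gene. The pan-leukocyte gene PTPRC was seen in 37 of 12531, 12 of 1449 and 65 of 40021 cells, and of the 2096 WM989 cells with a CCL2 UMI 4 had one of PTPRC. Of 14 leukocyte markers 10 had a UMI in primed and in drug-susceptible WM989 cells, with a summed level of 95.7 and 45.9 CPM that was nearly all CD68, while MS4A1 and TYROBP were at 0 UMIs. CSF1R was at 3.21 CPM in primed against 0.0340 CPM in drug-susceptible WM989 cells, and CD3D had 27 and 0 UMIs. The part of these genes in the results was not tested. Endothelial markers summed to 25.5 CPM in primed against 0.660 CPM in drug-susceptible WM989 cells. PECAM1 was at 22.8 against 0.183 CPM and VWF at 2.47 against 0.312 CPM, with CDH5 and TEK at 1 UMI each in primed cells. Fibroblast markers summed to 84.0 against 35.2 CPM. PDGFRA (47.3 against 0.734 CPM), PDGFRB (13.5 against 0.910 CPM) and DCN (6.19 against 1.33 CPM) were higher in primed cells, and LUM was lower (16.9 against 32.2 CPM). The melanocytic gene MLANA was at 59.0 CPM in primed against 1683 CPM in drug-susceptible WM989 cells. Transcript stretches of 43 bases were shared between CXCL2 and CXCL3 in 10.7% of the stretches of CXCL2 and between CXCL1 and CXCL2 in 7.20% of those of CXCL1, and none were shared with CXCL8. Those shares are over whole transcripts, with the shorter of the read lengths in the methods. How reads of CXCL1, CXCL2 and CXCL3 were divided among the 3 genes was not tested.

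In untreated WM989, the question was how the members differ between the 2843 primed and 9688 drug-susceptible cells. Since the states were called on these same counts and there is 1 sample, the values are a description with no test, and their intervals cover counting error only. Of the 10 members 6 reached at least 5 CPM in either state, and all 6 were over 2-fold higher in primed cells, beside 11.2% of the 10313 genes that reached that level. All 6 reached it through the primed cells alone, so that their direction was fixed by that filter and the count is no support for it. These are sums over cells, in which fewer expressing cells and less RNA per cell cannot be told apart, so shares of cells follow below.

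The chemokine CCL2 stood at 121 CPM among primed cells against 0.727 CPM in the other state, a ratio of 167 (95% interval 151 to 185). CCL5 was at 34.0 and 0.206 CPM, a ratio of 165 (137 to 200.5). The neutrophil chemokines CXCL1 and CXCL8 differed less, with CXCL1 at 7.66 and 0.659 CPM (ratio 11.6, 10.4 to 13.1) and CXCL8 at 11.7 and 0.442 CPM (ratio 26.5, 23.2 to 30.4). In these sums CXCL1 and CXCL8 thus kept a larger part of their level in drug-susceptible cells than CCL2 and CCL5 did. For CXCL8 few cells carried much of that level. Of its 247 UMIs in drug-susceptible cells, 1 cell of well 4 held 53 and 1 cell of well 1 held 51. CXCL3 had 167 UMIs in primed cells and 2 in the others, giving a ratio of 243 with an interval of 66.1 to 2020.5. CXCL2 had 65 and 9 UMIs, the fewest of the chemokines.

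Of the interleukins, IL1B stood at 73.4 CPM against 0.145 CPM, again with the primed cells first, a ratio of 506 (407 to 638) and the highest of the 6. IL24 was at 34.2 and 0.551 CPM, a ratio of 62.1 (55.4 to 69.8). IL1A, the membrane and nuclear form of interleukin 1, had 2 and 1 UMIs, and IL32 had 12 and 8 UMIs. The IL1 ligand of these primed cells was thus counted as IL1B, and IL1A was at or near the limit of counting. Leaving out the single cell with the most UMIs of each gene kept all 6 above 2-fold, and CXCL8 moved most, from 26.5 to 18. The ratio of CXCL8 was 15.5 without well 7, and 5.27 in r1 and 79.9 in r2 alone. That of IL1B was 1247 in r1 and 212 in r2, and that of CCL5 267 and 103.

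The levels spread widely over the 8 wells. Primed cells made up 56.9 to 79.7% of wells 1, 2, 5 and 6 and 6.85 to 9.42% of wells 3, 4, 7 and 8. In primed cells the lowest, median and highest well of CCL2 were 12, 89.2 and 159 CPM, and the 4 wells rich in primed cells, at 124 to 159 CPM, lay above the other 4, at 12 to 54.4 CPM. In drug-susceptible cells CCL2 split the same way, at 1.84 to 5.54 CPM in the wells rich in primed cells and 0.105 to 0.541 CPM in the others. The parts of the sort and of a well's share of primed cells in that split were not tested.

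In primed cells IL1B and IL24 did not follow that split. IL1B in primed cells had a lowest, median and highest well of 18.3, 59.2 and 109 CPM. The highest was well 8, where 1 cell held 419 of the 784 UMIs and which was at 51.0 CPM without it, and without the highest cell of each well the 4 wells rich in primed cells (34.9 to 93.4 CPM) still overlapped the others (16.3 to 51.0 CPM). In drug-susceptible cells IL1B did split, at 0.327 to 1.17 CPM in wells 1, 2, 5 and 6 and 0.00879 to 0.160 CPM in the others. IL24 ranged over 14.3, 34.2 and 60.6 CPM, the last in well 8, where 1 cell held 240 of the 437 UMIs. Without the highest cell of each well, IL24 was at 25.8 to 33.0 CPM in the wells rich in primed cells and at 9.97 to 27.8 CPM in the others, which overlap in part, and well 8 was no longer highest. CCL5 ranged over 7.70, 23.4 and 42.2 CPM. CXCL1 ranged over 3.25, 6.59 and 18.1 CPM, and CXCL8 over 1.18, 7.63 and 101 CPM, both highest in well 7, where 1 cell held 100 of the 162 CXCL1 UMIs and CXCL1 was at 7.02 CPM without it, below well 8 at 10.5 and well 5 at 8.88 CPM. For each of these 6 genes the primed cells of every well lay above the drug-susceptible cells of the same well, apart from CXCL8 in well 1, where primed cells had 1.30 and drug-susceptible cells 3.11 CPM, with 51 of the 54 UMIs of the latter in 1 cell. Of the 909 CXCL8 UMIs of primed cells in well 7, 1 cell held 721, and without it the well was at 21.3 CPM.

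**Figure D1:**
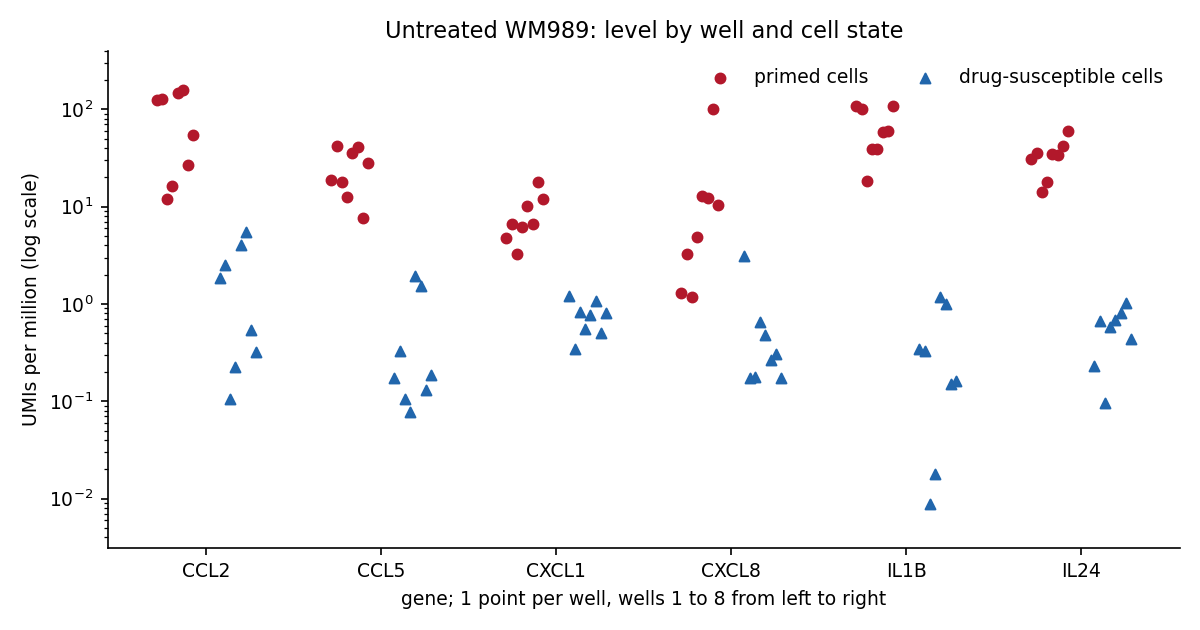
Level of 6 members in untreated WM989, in CPM on a log axis, with 1 point for the primed and 1 for the drug-susceptible cells of each of 8 wells. Primed CCL2 ranged from 12 to 159 CPM over wells, and CXCL8 of primed well 7 stood apart at 101 CPM.

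The replicates r1 and r2 differed for CXCL8, at 2.92 and 21 CPM in primed cells, or 2.47 and 13.3 CPM without the highest cell of each, and less for the others. CCL2 was at 109 and 135 CPM, CCL5 at 33.3 and 34.8 CPM, CXCL1 at 5.98 and 9.41 CPM, IL1B at 90.4 and 55.6 CPM, and IL24 at 31.7 and 36.9 CPM. IL1B was thus the gene of these 6 with its lower level in r2.

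The number of cells with a UMI showed which genes were widespread. CCL2 had a UMI in 64.1% of primed against 2.84% of drug-susceptible cells, and in 34.7% and 0.640% after each cell was thinned to 10000 UMIs. The median depth was 58253 UMIs in primed and 52835 in drug-susceptible cells. IL1B was seen in 34.5% of primed against 0.836% of drug-susceptible cells (thinned 17.2% and 0.134%), IL24 in 25.0% and 1.64% (11.2% and 0.392%), and CCL5 in 21.4% and 0.919% (8.02% and 0.155%). CXCL1 was seen in 15.3% and 2.44% (4.40% and 0.526%), CXCL8 in 10.1% and 0.970% (3.02% and 0.258%), CXCL3 in 2.85% and 0.0206%, and CXCL2 in 1.48% and 0.0516%. In drug-susceptible cells IL1B never exceeded 1 UMI per cell, in 81 cells, where free RNA and expression cannot be told apart.

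Within the primed cells the UMIs were concentrated in few cells. The 1% of primed cells with the most UMIs of a gene held 18.3% of those of CCL2, 39.3% of IL24, 42.0% of CXCL1, 43.4% of IL1B, 59.9% of CCL5 and 74.7% of CXCL8. Cells with at least 10 UMIs numbered 575 for CCL2, 248 for IL1B, 168 for IL24, 111 for CCL5, 35 for CXCL8 and 29 for CXCL1. The 35 such cells of CXCL8 carried 77.7% of its UMIs in primed cells, and the 248 of IL1B carried 86.3%. The highest count in 1 cell was 721 UMIs for CXCL8, 646 for IL1B, 622 for CCL5, 429 for CCL2, 240 for IL24 and 100 for CXCL1. CCL2 was therefore the broadest of the 6 and CXCL8 the most uneven.

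**Figure D2:**
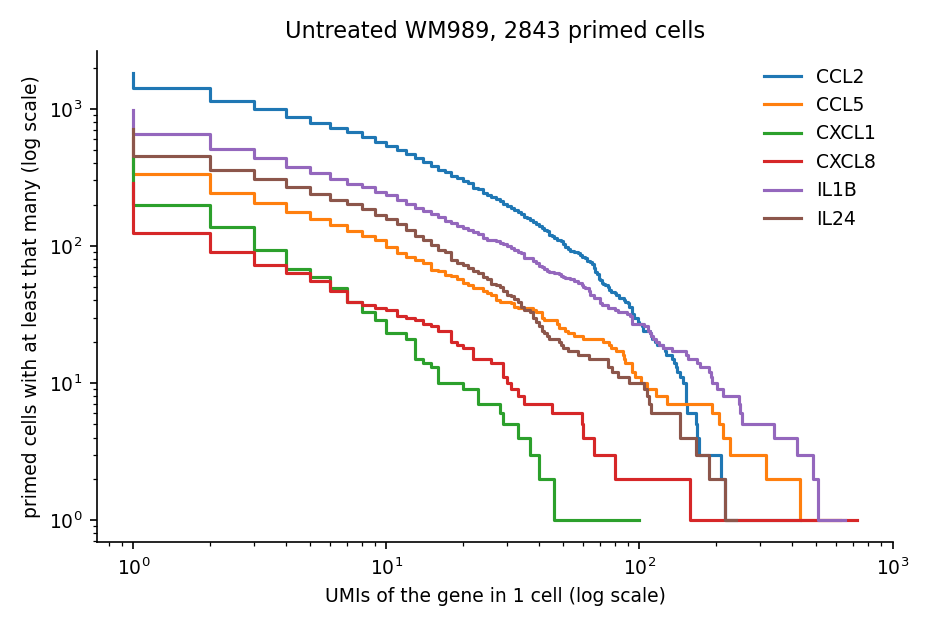
Number of primed WM989 cells, of 2843, with at least a given number of UMIs of a gene in 1 cell, both axes on a log scale, with 1 line per gene. The line of CCL2 starts highest and 575 cells reach 10 UMIs, while 35 cells do for CXCL8, whose line runs on to 721 UMIs.

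High cells of different members overlapped in part. Of the cells with at least 10 UMIs, 80 were high for both CCL2 and IL1B, 45 for CCL2 and CCL5 and 32 for IL1B and IL24. Shared high cells numbered 31 for CCL2 and IL24, 8 for CXCL8 and IL24, 6 for CXCL1 and CXCL8, and 4 for CCL5 and IL1B. Genes with more high cells can share more of them, and the overlap expected from their totals was not computed. The counts therefore do not rank the pairs. Counted over all 10 genes, 457 primed cells (16.1%) had no member UMI, 891 had 1 member, 782 had 2, 436 had 3, 192 had 4, 66 had 5, 15 had 6 and 4 had 7. In drug-susceptible cells 8858 (91.4%) had none. After thinning, CXCL8 was seen in 13.6% of the primed cells with and 2.54% of those without a CXCL1 UMI, with a rank correlation across cells of 0.136. That is a description, since these cells share wells and counts are sparse. It covers 1 pair and does not extend to the other pairs, which are not given here.

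The authors' clusters divided the primed cells by member. Among the primed clusters 2, 8 and 9, CCL2 was at 162, 28.5 and 87.1 CPM, CCL5 at 47.8, 13.0 and 15.6 CPM, and IL1B at 84.9, 23.5 and 78.6 CPM. IL24 was at 33.0, 54.3 and 24.3 CPM, and after thinning it was seen in 11.4%, 9.95% and 11.7% of their cells. The 1% of cells with the most IL24 UMIs held 35.1%, 59.3% and 25.3% of them. CXCL1 (8.60, 4.93 and 7.21 CPM) and CXCL8 (14.7, 8.77 and 6.70 CPM) differed less. Cluster 8 was thus lowest for CCL2, CCL5 and IL1B and highest for the summed level of IL24, which few high cells carried, but not for its share of cells. Among drug-susceptible clusters, cluster 10 had CXCL1 at 2.57, CXCL8 at 4.32 and IL24 at 3.86 CPM, where 1 cell held 53 of the CXCL8 and 1 cell 60 of the IL24 UMIs. Primed cells assigned to the G1 phase had CCL2 at 138 CPM, those in S at 69.6 and those in G2M at 87.8 CPM.

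**Figure D3:**
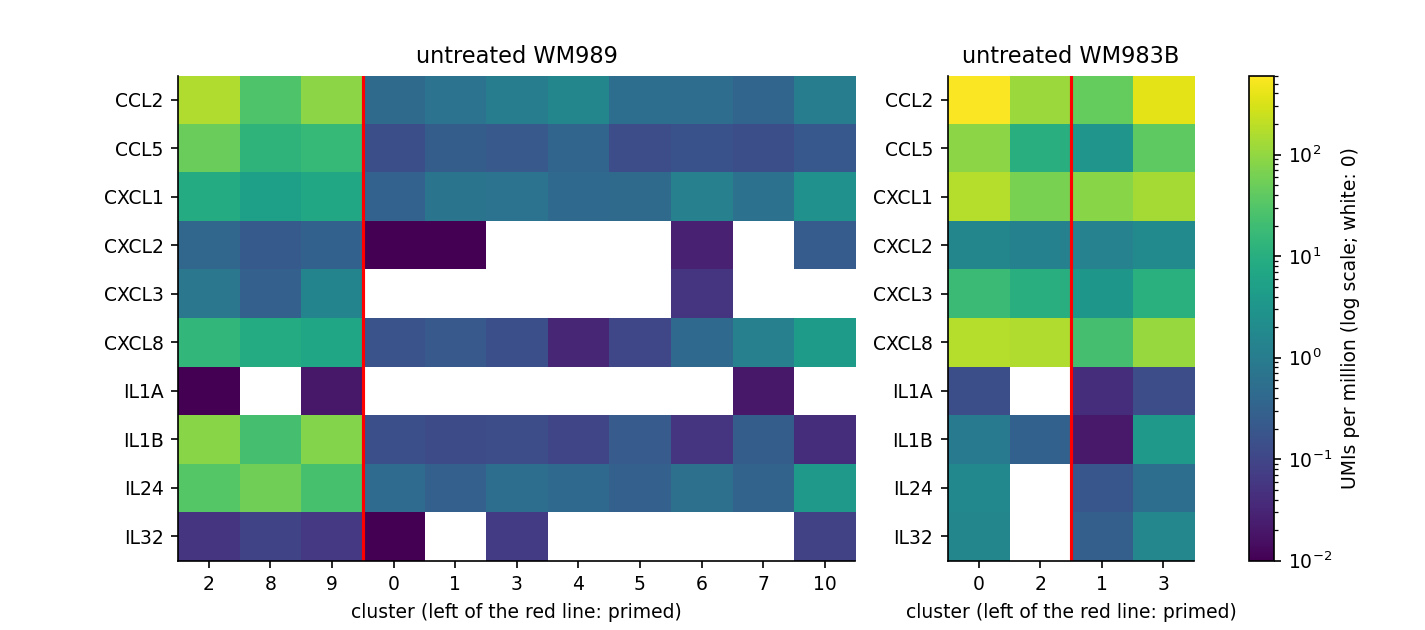
Level of the 10 members in each cluster of untreated WM989 and untreated WM983B, as colour on a log scale of CPM. White marks 0, and the primed clusters lie left of the red line. In WM989 the row of IL24 is highest in primed cluster 8, at 54.3 CPM, where CCL2 is lowest of the primed clusters, at 28.5 CPM, and where 1% of the cells held 59.3% of the IL24 UMIs.

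The genes nearest in pattern were found by Pearson's correlation of log2(CPM + 1) over 22 sums of a cluster and a replicate, among 11286 genes, as a description of sums that share cells and depth. IL1B lay nearest to KCNMA1 (r = 0.997), CYTIP (0.996) and CDA (0.995), and CCL2 to NRP1 (0.989), STEAP3 (0.989) and SIRPB1 (0.988). CCL5 lay nearest to the interleukin 1 receptor IL1R1 (0.992), CALB2 (0.991) and RTL5 (0.989), and IL24 to LINC01444 (0.981), SCG2 (0.977) and SLC12A8 (0.972). CXCL8 lay nearest to BIRC3 (0.931), an apoptosis inhibitor induced by NF-kB, SERPINB2 (0.924) and CXCL1 (0.900). CXCL1 lay nearest to CD82 (0.946), CDC42EP3 (0.944) and PHF11 (0.943). CXCL8 and CXCL1 thus had lower correlations with their nearest genes than the other 4 genes. They also had the fewest UMIs of the 6 in primed cells, 2254 and 1471, and the part of counting noise was not tested.

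Other genes of the pathway are given by list, beside a median log2 ratio of primed over drug-susceptible cells of 0.0380 over all 10313 genes. Of those genes 1158 (11.2%) were over 2-fold higher and 701 over 2-fold lower in primed cells. Of 30 other chemokines 8 reached 5 CPM. Those over 2-fold higher in primed cells were CCL3 (5.70 and 0.224 CPM), CCL7 (11.5 and 0.0197 CPM), CCL20 (9.99 and 3.48 CPM), CCL26 (12.2 and 0.0215 CPM) and CXCL12 (6.98 and 0.0125 CPM), while CX3CL1 was lower (2.11 and 6.60 CPM). CCL7 is a neighbour and close relative of CCL2. The 5 higher genes again reached 5 CPM through the primed cells alone and the lower one through the drug-susceptible cells.

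On the receptor side, 2 of 14 receptors reached 5 CPM, with IL1R1 higher (10.6 and 0.299 CPM) and its partner IL1RAP lower (16.3 and 57.9 CPM) in primed cells. Of 10 measurable IL1 signalling and processing genes, the caspase CASP1 (11.1 and 0.152 CPM) and the inflammasome sensor NLRP3 (6.99 and 0.0949 CPM) were higher and the adaptor PYCARD lower (66.6 and 192 CPM). Of 18 NF-kB factors and feedback targets 6 were higher, beside 11.2% of all genes, with a list median of 0.558. Among the 6 were BIRC3 (16.2 and 1.03 CPM), BCL3 (26.1 and 3.54 CPM) and IER3 (1492 and 294 CPM), while NFKBIZ was lower (19.5 and 68.8 CPM). Of 14 other cytokines 6 reached 5 CPM, through the primed cells alone, which fixed their direction, among them IL11 (120.2 and 0.809 CPM) and IL6 (18.6 and 0.149 CPM). IL1R1, CASP1, NLRP3, BIRC3, BCL3 and TRAF1 (8.25 and 1.24 CPM), another of the 6 NF-kB genes, likewise reached 5 CPM in primed cells alone. That filter fixed their direction, so the count of NF-kB genes is in part no support for it. The 1 other IL1 family gene that reached 5 CPM was on neither side.

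In WM983B the same description held 731 primed and 718 drug-susceptible cells of 1 library. Of the 5 members at 5 CPM or more 4 were over 2-fold higher in primed cells, beside 1.78% of 10673 genes. CXCL3, one of the 4, reached 5 CPM through the primed cells alone, so that its direction was fixed by that filter. CCL2 was at 512 and 91.0 CPM (ratio 5.63, 95% counting interval 5.46 to 5.81), CCL5 at 77.2 and 8.24 CPM (9.37, 8.49 to 10.4), CXCL8 at 173 and 35.6 CPM (4.86), and CXCL3 at 16.8 and 4.45 CPM (3.77). Among cells in G1 the ratios of CCL2, CCL5 and CXCL8 were larger, at 8.54, 31.9 and 7.30. CXCL1 was the fifth, at 159 and 92.3 CPM, a ratio of 1.72. CXCL1 had a UMI in 88.8% of primed against 86.8% of drug-susceptible cells, and CCL2 in 94.1% and 78.1%. After thinning to 30000 UMIs per cell the shares were 79.1% and 71.6% for CXCL1 and 87.6% and 58.8% for CCL2. At least 2 UMIs of CXCL1 were seen in 78.9% and 73.4%, and of CCL2 in 88.0% and 54.5%. No cell type of this library should lack these genes, so the share that free RNA gives could not be measured.

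The interleukins of WM989 were scarce in WM983B. IL1B was at 0.840 and 0.557 CPM (ratio 1.51), and IL24 at 1.49 and 0.241 CPM, where 1 primed cell held 40 of 73 UMIs. IL32 was at 1.33 and 0.464 CPM (2.87) and CXCL2 at 1.54 and 1.39 CPM (1.1). The state markers also differed from WM989, with SOX10 at 192 and 208 CPM and EGFR at 3.13 and 2.21 CPM, while AXL was at 76.2 and 24.2 CPM and NGFR at 56.1 and 12.3 CPM.

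A small cluster, cluster 3, held 2846 of the 4903 CCL2 UMIs and 299 of the 444 CCL5 UMIs of drug-susceptible cells. For CXCL8 it held 836 of 1917, for CXCL3 82 of 240 and for CXCL1 1011 of 4973. In clusters 0 and 2, which are primed, CCL2 was at 572 and 116 CPM, and in the drug-susceptible clusters 1 and 3 at 44.3 and 380.2 CPM. It was made up of 90 cells, all with a UMI of CCL2 and of CXCL1. CCL5 was at 87.4, 10.1, 3.12 and 39.9 CPM in clusters 0, 2, 1 and 3, with a UMI in 20.5%, 13.2%, 6.37% and 82.2% of their cells, so that it was most widespread in cluster 3 but highest in cluster 0. IL1B was seen in 25.6% of cluster 3 cells, or 8.89% after thinning, at 3.87 CPM. Without cluster 3 the ratio of primed to drug-susceptible cells was 11.6 for CCL2, 24.7 for CCL5, 7.43 for CXCL8 and 39.0 for IL1B, the last from 41 and 1 UMIs.

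Few of the other pathway genes differed between the states of WM983B. Of 5 other chemokines at 5 CPM, the interferon-induced CXCL10 (14.3 and 0.130 CPM) and CXCL11 (9.79 and 0.761 CPM) were over 2-fold higher in primed cells, where alone they reached that level. Of 5 other cytokines IL11 (27.7 and 4.93 CPM) and LIF (93.5 and 24.6 CPM) were over 2-fold higher. IL11 too reached 5 CPM in primed cells alone. None of 18 NF-kB factors and targets, 9 IL1 signalling genes and 1 receptor passed 2-fold in either direction. Median log2 ratios were 0.116 for the NF-kB list and 0.0398 for all genes.

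For the treatments, counts were summed per library and tested with edgeR's quasi-likelihood test with the replicate as a block, on 2 libraries per treatment, with p-values adjusted by the Benjamini-Hochberg method over all genes tested. Nothing says that the libraries came from separate cultures beyond the parallel replicates, so the p-values measure the spread between these libraries. All 3 treatments share the control libraries. Over all cells 7 members could be tested, and CXCL2, CXCL3 and IL1A, with at most 6 UMIs in any library, could not. Sums over all cells cannot tell the share of primed cells from the level within them. The drug-susceptible cells make up most of each library: primed cells were 2.26 and 4.47% of control r1 and r2, 29.1 and 31.3% with TGFB1, 2.26 and 4.32% with TGFBRi and 0.647 and 1.21% with PI3Ki. The fibroblast marker list moved with TGFB1 as well, from 30.8 and 31.5 CPM in controls to 45.5 and 42.2 CPM, and the endothelial list from 0.717 and 0.798 to 3.89 and 3.27 CPM, while the leukocyte list, mostly CD68, stayed between 34.4 and 46.8 CPM in all 8 libraries. Within that list CSF1R was at 11.7 CPM in the primed and 0.0584 CPM in the drug-susceptible cells of this experiment, and NKG7 at 0.979 and 0.0126 CPM. The part of these genes in the results was not tested.

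TGFB1 changed 4 of the 7 members over all cells, beside 29.0% of 18389 genes. CCL2 was at 0.166 and 0.262 CPM in control r1 and r2 and at 4.59 and 5.78 CPM with TGFB1, groups that lie far apart, and rose by a log2 fold change of 4.58 ± 0.25 (SE, n = 2 libraries per group, edgeR adjusted p = 1.93e-12). It passed the threshold in 10 of 10 alternatives, between 4.17 and 5.29. CCL5 was at 0.115 and 1.23 CPM in controls, where 1 cell held 55 of the 99 UMIs of r2, and at 1.46 and 2.56 CPM with TGFB1, without overlap. It rose by 1.67 ± 0.29 (edgeR adjusted p = 1.29e-04), a call lost without the block (adjusted p = 0.129) and in DESeq2. Its size rests on r2: the log2 fold change was 3.50 without control r2, 3.15 without TGFB1 r2, and 1.12 and 1.1 without control r1 and TGFB1 r1.

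IL1B was at 0.0640 and 0.598 CPM in controls and 0.288 and 2.13 CPM with TGFB1, so that the groups overlap but each replicate moved upward, and it rose by 1.86 ± 0.24 (edgeR adjusted p = 2.11e-06). Without the replicate block its adjusted p was 0.253. IL32 had 0 and 1 UMIs in controls and 10 and 11 UMIs with TGFB1 and rose (edgeR adjusted p = 0.00188), a call lost in DESeq2 (adjusted p = 0.0715). Its summed counts gave a ratio of 20.2 with a 95% counting interval of 3.25 to 835. IL32 passed the filter on low counts through the TGFB1 libraries alone, so that filter fixed its direction. It could not be tested without TGFB1 r1, without TGFB1 r2 or without the highest cell of each library. The other 3 did not pass: CXCL1 (0.397 and 0.673 to 0.463 and 0.990 CPM), CXCL8 (0.192 and 0.361 to 0.413 and 0.365 CPM) and IL24 (0.410 and 0.723 to 0.313 and 0.483 CPM), with edgeR adjusted p-values of 0.164, 0.387 and 0.159. CXCL8 passed without TGFB1 r2 (log2 fold change 1.58, edgeR adjusted p = 0.0155), and IL24 with equal numbers of cells (-0.96, adjusted p = 0.0183).

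TGFBRi changed 2 of the 7 members over all cells, beside 2.53% of genes. IL1B was at 0.121 and 1.46 CPM and rose by 1.27 ± 0.25 (edgeR adjusted p = 0.00575). IL24 was at 0.642 and 1.84 CPM, against 0.410 and 0.723 CPM in controls, and rose by 1.12 ± 0.22 (edgeR adjusted p = 0.00456). Over the alternatives the log2 fold change lay between 0.57 and 2.16 for IL1B and between 0.58 and 1.42 for IL24. Both groups overlap with the controls, and both calls were lost without the block, in DESeq2, without control r2 and without TGFBRi r2, and that of IL1B also with equal numbers of cells. CCL2, at 0.0970 and 0.332 CPM, did not pass (log2 fold change 0.03, edgeR adjusted p = 0.990), nor did CCL5 at 0.0606 and 0.446 CPM (adjusted p = 0.104), which passed downward with no filter on low counts and without control r1.

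PI3Ki changed 4 of the 7 members over all cells, beside 12.7% of genes, all of them downward. IL1B was at 0 and 0.0327 CPM and fell by 4.06 ± 0.51 on the log2 scale (edgeR adjusted p = 1.10e-05), CCL5 at 0.0712 and 0.106 CPM fell by 2.83 ± 0.51 (6.49e-04), CXCL8 at 0.0285 and 0.0817 CPM fell by 2.13 ± 0.56 (0.0137) and IL24 at 0.157 and 0.229 CPM fell by 1.49 ± 0.30 (0.00191). For each of these 4 both PI3Ki libraries lay below both controls. All 4 calls were lost without the block, with adjusted p-values up to 0.608 over the alternatives, and all 4 without PI3Ki r2. Those of CCL5 and CXCL8 were also lost without control r2, that of CXCL8 without PI3Ki r1 and with equal numbers of cells, and that of CCL5 in DESeq2. The log2 fold change of CCL5 lay between -3.29 and -0.91, the last without control r2. CCL2, at 0 and 0.106 CPM, missed the threshold (log2 fold change -1.61, edgeR adjusted p = 0.0634), but passed it with no filter on low counts and without PI3Ki r2, where it was the single member called.

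**Figure D4:**
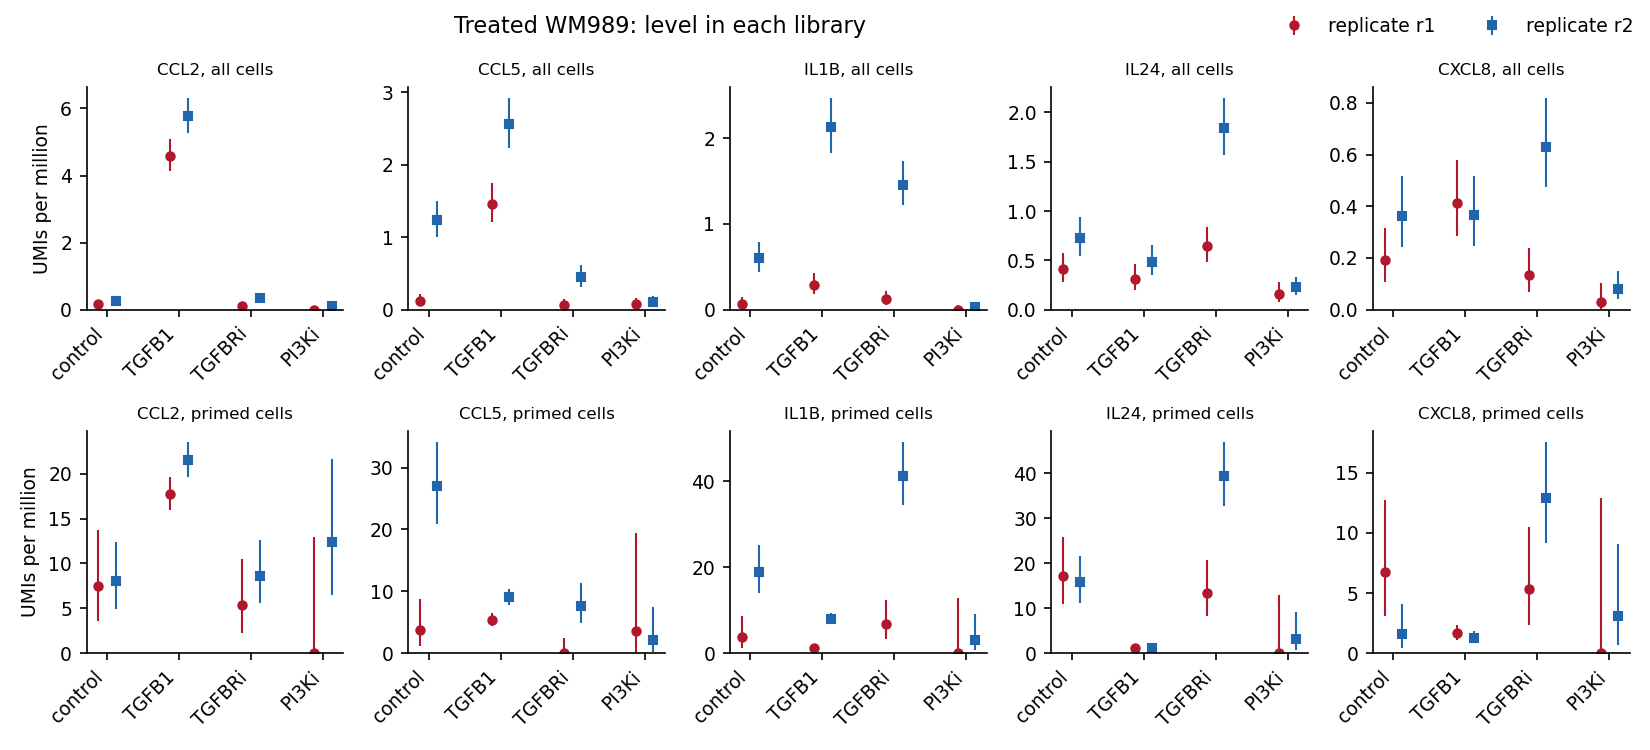
Level of members in the 8 libraries of the treatment experiment, in CPM on linear axes, over all cells and in primed cells, with replicate r1 in red and r2 in blue and bars giving 95% counting intervals. CCL2 over all cells lies at 4.59 and 5.78 CPM with TGFB1 against 0.166 and 0.262 CPM in controls, and IL24 in primed cells at 1.04 and 1.03 CPM against 17.1 and 15.7 CPM.

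Within the primed cells the picture was another one, and 5 members could be tested. TGFB1 changed 4 of them, beside 13.3% of 10930 genes, on 94 and 165 primed cells in controls and 1577 and 1757 with TGFB1. IL24 was at 17.1 and 15.7 CPM in control and 1.04 and 1.03 CPM in TGFB1 primed cells and fell by 3.81 ± 0.38 (edgeR adjusted p = 1.86e-10), in 9 of 9 alternatives. CCL2 was at 7.45 and 8.05 CPM in control and 17.7 and 21.6 CPM in TGFB1 primed cells and rose by 1.46 ± 0.28 (edgeR adjusted p = 1.55e-04), a call kept in 8 of 9 alternatives and lost without control r2 (0.0820). Both genes had groups without overlap, moving in opposite directions.

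IL1B in primed cells was at 3.73 and 18.9 CPM in controls and 1.09 and 7.96 CPM with TGFB1 and fell by 1.23 ± 0.29 (edgeR adjusted p = 0.00181), the opposite sign to its change over all cells. CCL5 was at 3.73 and 27.0 CPM in controls, where 1 cell held 55 of 67 UMIs of r2, and at 5.42 and 9.04 CPM with TGFB1, and fell by 1.03 ± 0.31 (edgeR adjusted p = 0.0179). That direction turned to a log2 fold change of 0.50 without control r2 and of 0.77 without TGFB1 r2. The calls of IL1B and CCL5 were both lost without the block and in DESeq2. IL1B had a log2 fold change of -0.07 when the highest cell of each library was left out, a setting in which CCL5 had too few UMIs to test, and its call was also lost without control r2 and without TGFB1 r2. CXCL8, at 6.71 and 1.61 CPM in controls and 1.64 and 1.25 CPM with TGFB1, did not pass (edgeR adjusted p = 0.242).

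The primed cells of control and TGFB1 libraries came from different clusters of the authors. With TGFB1, 1548 and 1706 of the primed cells were in cluster 4 and 29 and 51 in cluster 10, while in controls 5 and 6 were in cluster 4 and 89 and 159 in cluster 10. Over all libraries cluster 4 had CCL2 at 20.1, CCL5 at 7.35, IL1B at 4.76 and IL24 at 0.742 CPM, and cluster 10 had CCL2 at 7.47, CCL5 at 9.89, IL1B at 18.5 and IL24 at 21 CPM. Cluster 4 was thus high in CCL2 and low in IL24, and cluster 10 the reverse. Within the TGFB1 libraries, cluster 10 had 13 IL24 UMIs in r1 (36.5 CPM) and 0 in r2, which allows up to 4.87 CPM, while cluster 4 had 0.405 and 1.06 CPM.

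The inhibitors left few primed cells, 118 and 271 with TGFBRi and 25 and 70 with PI3Ki. TGFBRi changed 1 of 5 members in them, beside 0.375% of genes: CCL5, at 0 and 7.60 CPM, fell by 1.86 ± 0.43 (edgeR adjusted p = 0.0363). Its log2 fold change lay between -9.14 and -0.28 over the alternatives. IL1B, at 6.67 and 41.3 CPM, had a log2 fold change of 1.12 and did not pass (edgeR adjusted p = 0.0552), though it did without the highest cell of each library (2.04, adjusted p = 0.00173) and with no filter on low counts. IL24, at 13.3 and 39.3 CPM, passed only when TGFBRi r1 was left out (1.33, edgeR adjusted p = 0.0498). PI3Ki changed 3 of 5 members, beside 1.78% of genes. CCL5 was at 3.50 and 2.07 CPM, and IL1B and IL24 were each at 0 and 3.11 CPM, and all 3 fell, with edgeR adjusted p-values of 0.0259, 0.0199 and 0.0299. Each rests on 3 UMIs with PI3Ki against 72, 52 and 62 in controls, and 55 of the 72 of CCL5 lay in 1 cell of control r2. Ratios of PI3Ki to control from the summed counts were 0.128 (95% counting interval 0.0257 to 0.388), 0.177 (0.0353 to 0.546) and 0.148 (0.0297 to 0.454). All 4 of these calls were lost without the block, and DESeq2 gave none of the 5 members an adjusted p. The PI3Ki calls of IL1B and IL24 were lost without the highest cell, a setting in which CCL5 could not be tested. CCL5 lost both its calls without control r2, its TGFBRi call without TGFBRi r1 and its PI3Ki call without PI3Ki r2. IL1B lost its PI3Ki call without control r2 and without PI3Ki r2, and IL24 without control r1 and without either PI3Ki library.

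In drug-susceptible cells 4 members could be tested and their levels were low. TGFB1 changed 1 of them, beside 14.9% of 17914 genes. CXCL8 had 6 and 25 UMIs in controls (0.0782 and 0.322 CPM) and 0 and 3 UMIs with TGFB1, and fell (edgeR adjusted p = 0.00263), with a ratio of 0.122 from the summed counts (95% counting interval 0.0239 to 0.392). TGFBRi changed 1, beside 2.81% of genes. IL24 was at 0.117 and 0.244 CPM in controls and 0.407 and 0.498 CPM with TGFBRi, without overlap, and rose by 1.34 ± 0.34 (edgeR adjusted p = 0.0296). PI3Ki changed 2, beside 12.1% of genes, both with few UMIs. CXCL8 at 0.0286 and 0.0576 CPM fell by 2.15 ± 0.51 (edgeR adjusted p = 0.00600), and CCL5, at 0.0521 and 0.412 CPM in controls and 0.0572 and 0.0906 CPM with PI3Ki, fell by 1.59 ± 0.47 (0.0286). The level of CCL5 did not fall in r1, and its log2 fold change lay between -1.95 and -0.07 over the alternatives. All 4 of these calls were lost without the block and without control r2, and DESeq2 gave no adjusted p for any of them. Those of CXCL8 and CCL5 were also lost without the r2 library of the treatment, that of IL24 without control r1 and without TGFBRi r1, and those of IL24 and of CCL5 without the 114 cells of drug-susceptible cluster 12, where CCL5 was at 10.4 CPM. CCL2 had too few UMIs to test here, at 0.0391 and 0.0129 CPM in controls and 0.167 and 0.112 CPM with TGFB1.

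The related genes stand beside 16.3% of all genes that rose and 12.7% that fell with TGFB1 over all cells, and several of the counts are near those shares. TGFB1 raised 4 of 9 testable other chemokines namely CCL3 (log2 fold change 3.91), CCL20 (1.25), CCL26 (4.49) and CXCL12 (3.25), and lowered CCL17 (-1.31) and CX3CL1 (-0.45), with a list median of 0.935 beside 0.00587 for all genes. Of 12 IL1 signalling genes 4 rose, including CASP1 (1.61) and NLRP3 (1.06), and PYCARD fell, and of 8 receptors IL1R1 rose (0.73) and CCR1 and IL1RAP fell. Of 19 NF-kB factors and targets 9 rose and 2 fell, REL and NFKBIZ (-0.76), with a median of 0.239. Of 10 other cytokines 4 rose, IL6 (2.66), IL11 (3.84), LIF (0.72) and CSF1 (1.47), and IL12A fell, and of 2 other IL1 family genes IL33 fell.

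The inhibitors moved fewer of these genes, as they did of all genes, of which 1.09% rose and 1.45% fell with TGFBRi and 5.83% rose and 6.83% fell with PI3Ki. TGFBRi lowered CCL20 (-1.23) and CCL28 (-0.27) of 9 other chemokines, raised PYCARD and lowered CEBPD. PI3Ki lowered CCL20 (-0.54) and CCL28 (-0.37), IL1RAP, IL11 and 5 of 19 NF-kB genes (BCL3, TNIP1, ICAM1, IER3 and CEBPB), and raised CEBPD (0.58) and PYCARD. In primed cells TGFB1 raised TNIP1 and lowered NFKBIZ, ICAM1, SOD2 and CEBPD among the 19 NF-kB genes, beside 6.21% of all genes that rose and 7.09% that fell.

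ATAC-seq asked whether chromatin at these genes differed between the sorts. The authors called peaks in each library, and the fold enrichment of a peak is the ratio of its height over the local background. Each library had 213225 to 270920 peaks, and the read depth behind them was not given. EGFR-NGFR-High had 270920, 250347 and 226172 peaks and NGFR-High 255565, 241662 and 242462. EGFR-High had 216248, 244808 and 217565 peaks and Mix 213225, 227072 and 227378. The part of these numbers in the results was not tested. Within 500 bases of the annotated start, CXCL1 had a peak in all 12 libraries. It stood at 15.2, 18 and 13.4 in EGFR-NGFR-High, at 13.2, 11.8 and 12.7 in EGFR-High, at 17.5, 16.6 and 17.4 in NGFR-High and at 11.6, 10.4 and 14.5 in Mix. The NGFR-High values all lay above Mix and the others overlapped it.

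CXCL8 was at 6.25, 5.67 and 8.93 in EGFR-NGFR-High, at 3.84, 3.78 and 6.85 in EGFR-High, at 6.36, 5.69 and 5.17 in NGFR-High, and at 4.48 and 4.36 in Mix, where 1 library had no peak. CXCL3 was at 7.44, 6.14 and 3.97 in EGFR-NGFR-High, at 4.70 and 4.73 in EGFR-High, at 5.57, 5.25 and 4.70 in NGFR-High and at 4.93 and 3.87 in Mix, with 1 library without a peak in EGFR-High and in Mix. CCL2 had a start peak in 1 EGFR-NGFR-High library (5.65) and 2 NGFR-High libraries (5.17 and 4.23) and in no Mix library, and CXCL2 in 1 EGFR-NGFR-High (4.25) and 1 EGFR-High library (3.31). CCL5, IL1A, IL1B, IL24 and IL32 had none in any library. CCL5, IL1B and IL24, all over 2-fold higher in primed WM989 cells, thus had no peak within 500 bases of the start in any sort. IL24 had one farther in, centred 1306 bases from its start inside the gene (chr1:206898469-206899029), in all 12 libraries. It stood at 21.7, 13.7 and 14.4 in EGFR-NGFR-High, at 12.4, 14.7 and 9.30 in EGFR-High, at 15.5, 16.2 and 13.6 in NGFR-High and at 7.17, 8.48 and 10.6 in Mix. The EGFR-NGFR-High and NGFR-High values all lay above Mix, while those of EGFR-High overlapped it. It was 1 of 22 regions within 50 kb of the IL24 start, and not all went that way. The region chr1:206921726-206922415, centred 24627 bases downstream, went the other way. There EGFR-NGFR-High (14.3, 17.5 and 14.4) and NGFR-High (14.7, 16.6 and 18.8) lay below Mix (20.2, 26.4 and 23.7). CCL2 also had a peak outside the 500 bases, centred at -2535 bases (chr17:34252097-34253382), in all 12 libraries. That peak stood at 17.3, 15.1 and 12.4 in EGFR-NGFR-High and at 6.72, 8.48 and 7.74 in Mix, without overlap. EGFR-High (9.82, 16.1 and 7.34) and NGFR-High (17.9, 11.4 and 7.99) overlapped Mix. The share of peaks over all genes that lie apart in this way was not computed.

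Taking a missing peak as the lowest value, 1 of 5 members with a start peak (CXCL8, higher) did not overlap between EGFR-NGFR-High and Mix, beside 13.8% of 12974 genes. For EGFR-High it was 0 of 4, beside 14.6% of 12829 genes, and for NGFR-High 2 of 4 (CXCL1 and CXCL8, both higher), beside 26.0% of 12941 genes. Among those genes, 11.3% were higher and 2.47% lower than Mix for EGFR-NGFR-High, 3.80% and 10.8% for EGFR-High, and 24.0% and 2.02% for NGFR-High. With 3 libraries against 3 the exact two-sided permutation test cannot go below p = 0.1. CXCL8 in EGFR-NGFR-High and NGFR-High and CXCL1 in NGFR-High reached that value, so none could pass 0.05.

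Farther regions were searched within 50 kb of each start for peaks in all 3 libraries of a sort and in none of Mix, a search set up after the start peaks had been seen. For EGFR-NGFR-High such a region lay near 6 of the 10 members (CCL2, CXCL2, CXCL8, IL1A, IL1B and IL24), beside 22.2% of 19962 protein-coding genes. For EGFR-High 3 members had one, beside 7.86%, and for NGFR-High 4 members, beside 18.3%. In the other direction, with peaks in all Mix and no EGFR-NGFR-High library, there were 0 members, beside 5.40%. The 6 members share 9 distinct regions, and IL1A and IL1B, whose starts are close together, count the same pair of regions.

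The region with the highest values lay between IL1A and IL1B, at chr2:112804132-112804761 on hg38, in no annotated gene. It was at 17.6, 10.9 and 8.93 in EGFR-NGFR-High, at 13.5, 8.75 and 9.87 in NGFR-High and at 9.39, 8.04 and 5.87 in EGFR-High. Its centre was at 32370 bases from the start of IL1B, downstream, and at -19953 bases from that of IL1A. A neighbouring intergenic region at chr2:112814364-112814619 was at 5.06, 6.14 and 3.97 in EGFR-NGFR-High and at 4.77, 6.56 and 5.64 in NGFR-High. It had no peak in any EGFR-High library. Both regions lie on the IL1A side of IL1B, which itself had no start peak. On the other side of the barely counted IL1A lay a further region at chr2:112751881-112752250 in an intron of CKAP2L (5.36, 6.14 and 4.96).

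Near CXCL2, the region chr4:74109556-74109870, with its centre at -10517 bases from the start, was at 8.93, 8.98 and 8.93 in EGFR-NGFR-High, 9.15, 6.12 and 6.58 in NGFR-High and 5.12, 8.04 and 3.92 in EGFR-High. Its neighbour chr4:74109088-74109544 was at 7.14, 5.20 and 4.47 in EGFR-NGFR-High, and chr4:74116965-74117409, in an intron of MTHFD2L, at 9.22, 5.67 and 4.96. CXCL2 itself had few UMIs. The region of CXCL8, chr4:73721970-73722236, lay at -18416 bases and was at 5.36, 8.03 and 4.47. The region of CCL2, chr17:34226463-34226775, lay at -28655 bases and was at 4.46, 4.25 and 4.47, with EGFR-High library 1 at 3.41.

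The region of IL24, chr1:206927156-206927678, lay 29974 bases downstream of its start and 844 bases from PIGR. It was at 8.33, 6.14 and 6.95 in EGFR-NGFR-High and at 7.16, 6.12 and 6.11 in NGFR-High. Nearness does not tie any of these regions to a gene.

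**Figure D5:**
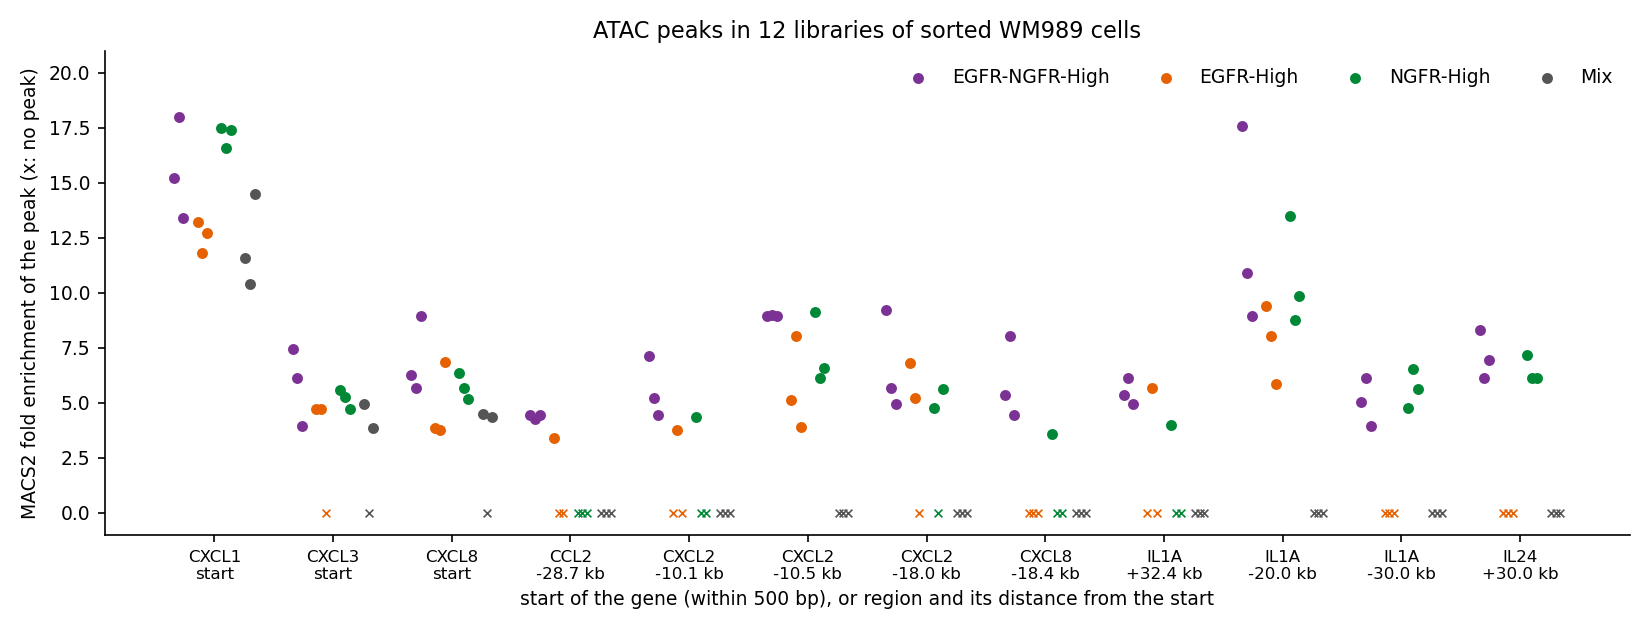
MACS2 fold enrichment of the peak at the start of a member, or at a region given by its distance from the start, in the 12 ATAC-seq libraries, with 1 point per library coloured by sort and a cross where a library has no peak. The regions have points in EGFR-NGFR-High and crosses for all 3 Mix libraries, while CXCL1 has a start peak in all 12.

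Stretches of 30 bases from these regions are shown for motifs within 300 bases at their centres, on the plus strand of hg38, with capitals again marking AP-1 or kB-type letters.
CXCL2 region chr4:74109179-74109208: ctcacatgcacTGAGTCAgaaaatgctatt
CXCL2 region chr4:74109227-74109256: tgtcaggtttaTGACTCAacaaactgaaat
CXCL2 region chr4:74117183-74117212: ctaggaaacagTGAGTCAtggcatgctgag
CXCL8 region chr4:73722108-73722137: tgagttcagttTGACTCAtgtggtccagta
IL1A and IL1B region chr2:112804297-112804326: TGACTCAgcccttccacttctaggtcttta
IL1A and IL1B region chr2:112814511-112814540: tgctgttttaGGAATTTCCctcatggcaca
IL24 region chr1:206927293-206927322: ctatactaagcTGAATCAtatcctctccaa

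Within that window, AP-1 letters stood in 19.0% of all 230055 regions and in 49.3% of the 7279 regions with peaks in every EGFR-NGFR-High and no Mix library, and kB-type letters in 14.9% and 15.2%. Of the 9 regions near members 5 held AP-1 letters, near that second share, 3 held kB-type letters, 2 of them both, and 3 held neither, namely those of CCL2, of CXCL2 at -10517 bases and of IL1A in CKAP2L. The kB-type letters between IL1A and IL1B were the same GGAATTTCC as in the CXC promoters, while those of the CXCL2 region in MTHFD2L and of the CXCL8 region differed from it.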

How the data were processed

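The single-cell values are UMI counts for each gene in each cell, which the authors deposited after running Cell Ranger against hg38 (its version is not given in the sources used here) and filtering cells in Seurat. Their cell labels (library, replicate, cluster, state, phase) were used as they stand, and doublets were not called anew. The authors also deposited the percent of mitochondrial UMIs per cell and a lineage barcode score (UMIs of barcodes). For ATAC-seq they deposited MACS2 2.1.1.20160309 peak lists per library, made after Bowtie2 2.3.4.1 and SAMtools 1.1, in which fold enrichment is a ratio over local background and the −log10 of the q-value was kept.

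Counts were summed over cells of a state, cluster or library and scaled to CPM. Ratios were taken for members at any level, with exact 95% Poisson-based intervals. The threshold of 5 CPM in either state applied to the counts of genes over 2-fold and to the lists. Treatment sums went into edgeR 4.0.16 under R 4.3.3 (filterByExpr, TMM factors 0.934 to 1.07, quasi-likelihood, two-sided, threshold 0.05), with treatment and replicate as terms and 3 residual degrees of freedom. Standard errors were the log2 fold change over the square root of F. The block follows the methods, which split 1 well over the 4 plates. Deviations of r2 from r1 correlated between treatments at 0.256 to 0.365 over 18389 genes, and at 0.0251 to 0.146 in primed cells. DESeq2 1.42.0 was an alternative, and the procedure was tested on simulated data. Samples are labelled Mix and Primed where cells are labelled r1 and r2, and the names could not be matched. ATAC values were compared with exact permutation tests in Python 3.11.15 with scipy 1.17.1.

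All members were named whatever they showed, other pathway genes by lists, with values for those past the threshold. Members and lists were chosen with earlier results of these data known. Genes nearest in pattern were the 3 with the highest correlation.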

Additional observations from a re-analysis of the deposited data

Results flagged for a closer look

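Both results here concern CXCL8 over the 8 wells of untreated WM989, which are libraries of 1 sample and, since cultures were loaded on a pair of wells each, not 8 separate cultures. In primed cells well 7 had 101 CPM, while the next well had 13.0 and the lowest 1.18 CPM, so that the gap to the next well was 0.882 of the whole range, above the 95% critical value for 8 values. A single cell held 721 of the 909 UMIs of well 7, which without it stood at 21.3 CPM. In drug-susceptible cells well 1 had 3.11 CPM and the next well 0.649 CPM, a gap of 0.838 of the range, and 1 cell held 51 of the 54 UMIs of well 1. That critical value is for 8 independent, normally distributed values and for 1 set at a time, and 12 sets were examined. These wells share cultures and single cells held most of the UMIs, so how often such a gap would arise by chance is not known.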

How the results depend on the processing

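Alternatives on the highest cell, cluster 3 and cluster 12 were chosen after seeing the data. Without the replicate block, TGFB1, TGFBRi and PI3Ki changed 2, 0 and 0 members over all cells, 0, 0 and 0 in drug-susceptible and 2, 0 and 0 in primed cells. Genes changed without the block numbered 40 with TGFBRi and 649 with PI3Ki over all cells, 1189, 47 and 570 in drug-susceptible cells, and 9 with TGFBRi and 87 with PI3Ki in primed cells. In DESeq2 with the replicate block, members changed were 2, 0 and 2 over all cells, 0 with TGFB1 in drug-susceptible cells and 2 with TGFB1 in primed cells, and no member had an adjusted p under the inhibitors within either state. DESeq2 changed 326 genes with TGFBRi in drug-susceptible cells and 693 with TGFB1 and 16 with TGFBRi in primed cells. In G1 drug-susceptible cells each treatment changed 0 members of 1 tested, and TGFBRi changed 210 genes. Equal numbers of cells left 1 member with TGFBRi over all cells. Without cluster 12, TGFBRi changed 0 and PI3Ki 1 member in drug-susceptible cells. Without the highest cell, PI3Ki changed 1 member in drug-susceptible and 0 in primed cells, and TGFB1 2 in primed cells. No filter on low counts gave 748 genes with TGFBRi over all cells and 2 members in primed cells. The reasons for these shifts were not tested. For start peaks, a window of 2000 bases gave 2 of 6 separated members for EGFR-NGFR-High and 3 of 5 for NGFR-High, IL24 being the one added. The share over all genes was not computed for that window. The 50000 highest peaks gave 0 for EGFR-NGFR-High and for NGFR-High, since no member then had a start peak.

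Leaving out 1 library at a time gave, for TGFB1, TGFBRi and PI3Ki, 3164 to 4161, 168 to 1146 and 719 to 1302 genes over all cells, with 3 to 4, 0 to 3 and 1 to 4 members. In drug-susceptible cells it gave 988 to 2098, 206 to 1247 and 632 to 1237 genes, with 0 to 1, 0 to 1 and 0 to 2 members, and in primed cells 584 to 763, 17 to 31 and 96 to 138 genes, with 1 to 4, 0 to 1 and 0 to 2 members. In WM989 5 to 6 members were over 2-fold higher, 5 of 5 at 5 CPM without r2, where CXCL8 fell to 2.92 CPM at a ratio of 5.27. Separated start peaks ranged over 1 to 3, 0 to 1 and 3 to 3 members for EGFR-NGFR-High, EGFR-High and NGFR-High. Each of those runs compared 2 libraries with 2, where separation comes more easily than with 3 against 3. The share over all genes was not computed for them. Among values with a direction, those reversed were CCL5 in primed cells with TGFB1, which ranged from -1.51 to 0.77 when 1 library was left out, with 0.50 without control r2 and 0.77 without TGFB1 r2, and IL24 in WM983B, a ratio of 0.840 in G1 cells from 1 UMI in each state (0.0107 to 66.0), which gives no direction. CXCL2 and IL1A in WM983B, whose ratios had intervals that span 1, fell to 0.883 without the highest cell and 0.952 after thinning, and to 0.491 after thinning. CCL2 over all cells and IL24 in primed cells with TGFB1 passed the threshold in every alternative run. UMIs limit CXCL2, CXCL3, IL1A and IL32, and 2 libraries per group limit the treatment tests.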
